A study of Mus musculus with 4 samples.

Results

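The genes described here are 35 genes of integrin adhesion and of the actin and myosin II cytoskeleton. They were taken by exact symbol from the feature lists, and all 35 were found among the 55357 genes of the files. By role they include adhesion receptors, adhesion-site proteins, actin cross-linkers and membrane linkers, actins and actin turnover, myosin II subunits and signalling genes such as Rac1, Rac2, Rock1 and Rock2. The libraries were single-cell RNA-seq of LSK cells, lineage-negative, Sca-1+ and Kit+ cells sorted from mouse marrow, among which are blood stem cells and early progenitors. All donors were wild-type mice, and their age and sex are not given in the sources used here. There were 2 libraries labelled Control, from vehicle-treated animals, and 2 labelled Yoda1, from animals given Yoda1 intraperitoneally over 2 weeks. Yoda1 is a small-molecule agonist of Piezo1, a mechanically gated cation channel. The labels do not say whether the libraries of a group came from separate mice or from pools, so a p-value below measures library-to-library spread alone, and that spread may be technical.

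Integrins are paired receptors whose outer part binds matrix or a counter-receptor and whose short tail is gripped by talin. Talin recruits vinculin, which helps tie the receptor to actin filaments, and zyxin and paxillin are found at the same adhesion sites. Non-muscle myosin II under the control of ROCK kinases puts those filaments under tension. In the bone marrow this machinery, with the chemokine receptor CXCR4 and the hyaluronan receptor CD44, is known for lodging stem and progenitor cells in their niches, and in megakaryocytes for the shaping of proplatelets.

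After filtering, 7620 and 7822 control cells and 9122 and 9756 Yoda1 cells were kept, with 89058521 to 110493533 UMIs (counted molecules) per library and a median of 7311 to 11220 UMIs per cell, lowest in Yoda1 library 2. Any 2 libraries shared 14 to 30 cell barcodes. Kit was read at 98.4 to 156 CPM (UMIs scaled to a common library total). Ly6a, which encodes Sca-1, was read at 113, 97.9, 262 and 114 CPM in control 1, control 2, Yoda1 1 and Yoda1 2. Cells were also put into lineage gates by a score over 8 marker genes each, none of them one of the 35. Each gate is a range of a score, not a cell type, and 7 gates held at least 50 cells in every library; 13734 cells (40.0%) fell in no gate. Gate shares differed between libraries. The HSC-like gate (after haematopoietic stem cell) held 3.31%, 4.60%, 5.31% and 19.4% of the cells of control 1, control 2, Yoda1 1 and Yoda1 2, and the myeloid-primed-like gate 24.4%, 17.6%, 19.5% and 2.30%, so Yoda1 library 2 stands apart in both. Ly6a differed between gates, with 170 to 729 CPM in the HSC-like, 114 to 616 in the lymphoid-primed-like and 154 to 742 in the dendritic-like gate. It had 24.1 to 131 CPM in the myeloid-, 14.6 to 56.8 in the erythroid- and 19.8 to 68.8 in the megakaryocyte-primed-like gate. In the mast and basophil-like gate it had 33.7 to 98.8 CPM. Over all cells the 7 late-neutrophil genes summed to 57.3 to 213 CPM, the 6 red-cell genes to 25.7 to 125 CPM and the stromal genes to 0.534 to 1.43 CPM.

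The 35 genes together took a similar share of the transcriptome in all 4 libraries, 142 and 149.9 of every 10000 UMIs in the controls and 130.4 and 146 in the Yoda1 libraries. The groups overlapped, since Yoda1 library 2 lies between the controls. With every library given the same mix of gates the values were 144, 145, 130.5 and 149.6, with Yoda1 library 1 the lowest and Yoda1 library 2 the highest. After each cell was thinned to 3000 UMIs, the median cell had 133.3 module UMIs per 10000 in both controls and in Yoda1 library 2 and 123.3 in Yoda1 library 1. Of the module's UMIs, 76.2% came from 6 members, Tmsb4x, Actb, Actg1, Cfl1, Pfn1 and Myl6. Tmsb4x and Actb alone made up 48.9%, so the sum follows mainly these genes.

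**Figure D1:**
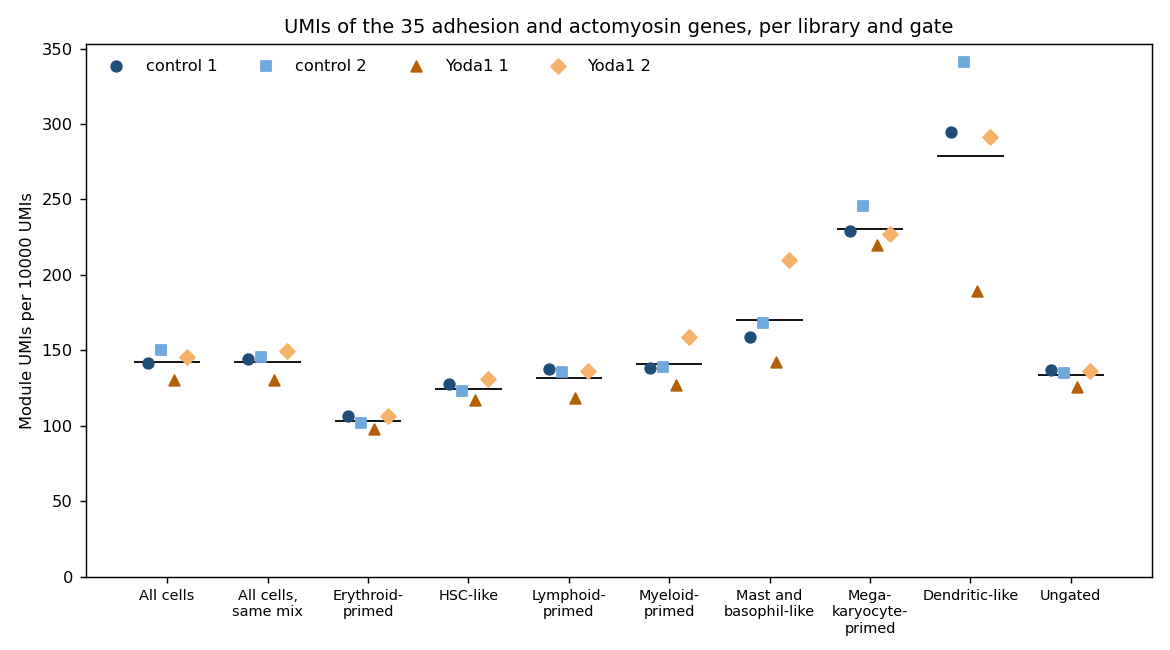
UMIs of the 35 genes per 10000 UMIs (vertical axis, from 0) for each library, in all cells, in all cells with the same mix of gates, in each lineage gate and in ungated cells; black bars are means over the 4 libraries. The erythroid-primed-like gate is lowest (98.1 to 107), the megakaryocyte-primed-like gate is high in every library (219.7 to 246), and the dendritic-like gate is high but spread (189 to 341). These are shares of raw UMIs, without the TMM scaling used in the tests below. The order of the erythroid-primed-like and HSC-like gates depends on that scaling.

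Several of the 35 genes are known targets of serum response factor, which binds the CArG box and whose MRTF co-factors respond to the pool of actin monomers. Promoter windows of 300 bases (250 before to 50 after each RefSeq start, GRCm38.p6) were found for 25 of the 35 members, in 28 windows. A CArG box, read on both strands, was in 4 of the 28 (14.3%) and in 535 of 32851 windows of all genes (1.63%). A match describes letters, not binding. The stretches of all 4 member windows with a box are shown, 5′ to 3′ on the gene's strand with the box in capitals. Vcl, Actg1 and Myl6 differed between gates, as did every other tested member in some comparison, and Myl9 is nearly unread here. They lie at chr14:20929148-20929205 on the plus strand for Vcl, chr11:120348551-120348610 on the minus strand for Actg1, chr10:128493025-128493084 on the minus strand for Myl6 and chr2:156775278-156775337 on the plus strand for Myl9. In GENCODE M21 the stretches of Vcl, Actg1 and Myl9 overlap no exon. That of Myl6 lies within a retained-intron transcript, and 21 of its 60 bases lie in exons of other transcripts.
Vcl: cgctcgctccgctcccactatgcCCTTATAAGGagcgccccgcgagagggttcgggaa
Actg1: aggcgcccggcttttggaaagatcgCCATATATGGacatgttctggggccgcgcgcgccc
Myl6: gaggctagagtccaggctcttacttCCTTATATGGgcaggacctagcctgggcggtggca
Myl9: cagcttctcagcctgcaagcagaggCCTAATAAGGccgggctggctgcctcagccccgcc

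The first comparison asked whether 2 weeks of Yoda1 changed these genes over all LSK cells. None passed the threshold: 0 of the 34 tested members, beside 0 of 18182 genes (0% called), had an adjusted p under 0.05 in edgeR's quasi-likelihood test with Benjamini-Hochberg adjustment. At an unadjusted p under 0.05 there were 309 of 18182 genes and 0 members, and DESeq2 called 5 genes. With 2 libraries a group, a lack of calls does not show that the genes were unchanged. Without Yoda1 library 1 edgeR called 938 genes and without Yoda1 library 2 209, in both cases 0 members. The fitted log2 fold changes lay above 0 for 11 members and below 0 for 23, with a median of -0.059 against 0.0050 over all genes. In sums over cells, fewer cells of a type and less RNA per cell cannot be told apart. Myl9, a regulatory light chain best known from smooth muscle, was left out by the filter on low counts at 0.0272 to 0.0662 CPM.

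On the plain CPM scale, both Yoda1 libraries lay below both controls for 10 of the 35 members and above both for 0. Over all genes tested 9.95% were lower in this sense and 9.4% higher. Taken singly, Yoda1 library 1 lay below both controls for 22 members and above both for 3. Yoda1 library 2 lay below both for 13 and above both for 13. The 10 members were the integrin genes Itga4, Itga6, Itgal and Itgb2, the integrin-linked kinase gene Ilk, and Cfl1, Pfn1, Tmsb4x, Myl6 and Myl12a. With CPM corrected by TMM factors the counts were 9 lower and 0 higher, beside 10.2% and 10.6% of all genes. Itga4, Itgb2, Pfn1, Tmsb4x, Myl6 and Myl12a were lower on both scales, and Cxcr4, Actg1 and Diaph1 on the TMM scale but not on plain CPM. Several gaps were small: Itga6 was read at 39.4 and 41.3 CPM in the controls and 39.0 and 39.3 CPM under Yoda1.

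**Figure D2:**
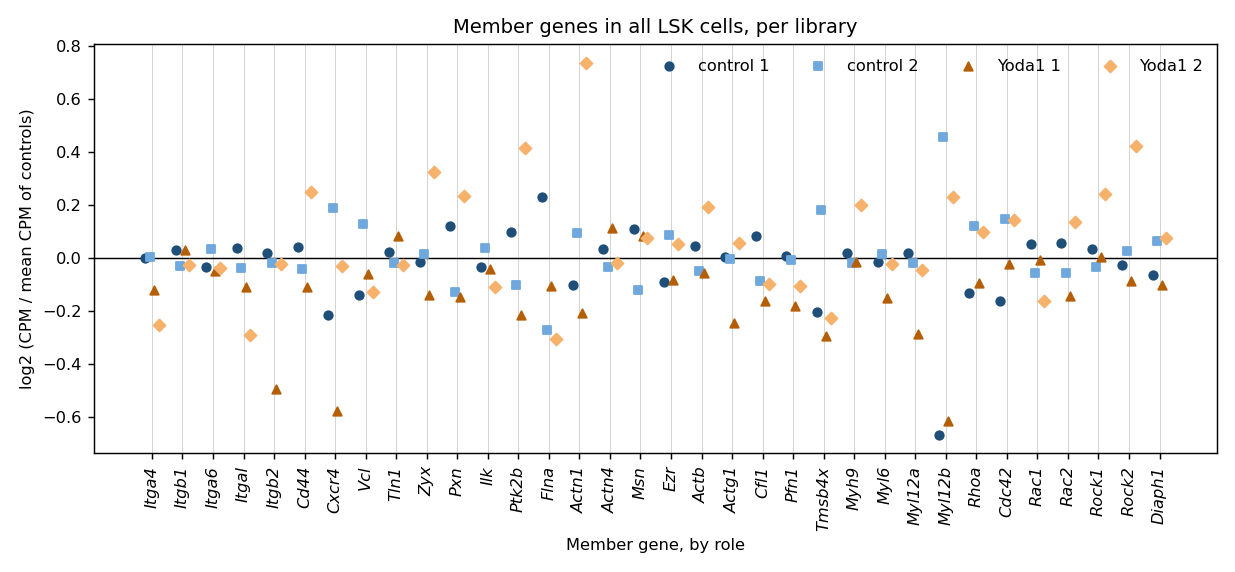
log2 ratio of each library's CPM to the mean CPM of the controls, over all cells, for the 34 members other than Myl9, ordered by role. The libraries of one group lie apart for many members; Myl12b separates by library number (59.5 and 61.8 CPM in the first libraries, 129.8 and 111 CPM in the second) and Actn1 is high in Yoda1 library 2 alone (20.4 CPM).

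Among the receptors, Cxcr4 had the smallest p of the members that were lower. It encodes the receptor for the niche chemokine CXCL12 and was read at 23.2 and 30.7 CPM in the controls and 18.1 and 26.4 CPM in the Yoda1 libraries. These plain CPM overlapped between groups, and the log2 fold change was -0.33 ± 0.20 (SE; n = 2 libraries a group; edgeR adjusted p = 0.99994). Itgb2, the beta chain of the leukocyte integrins, was read at 14.4 and 14.0 CPM in the controls and 10.1 and 14.0 CPM under Yoda1. Yoda1 library 1 alone stands clearly lower, and the log2 fold change was -0.30 ± 0.20. Its partner Itgal, the alpha chain of LFA-1, had 28.3 and 26.9 CPM against 25.5 and 22.5 CPM, lower in both Yoda1 libraries. Itga4 and Itgb1 encode the chains of VLA-4, which binds VCAM-1 on stroma. Itga4 was read at 136 and 137 CPM in the controls and 126 and 115 CPM under Yoda1, below both controls. Itgb1 was read at 90.2 and 86.7 CPM against 90.2 and 86.8 CPM, so its groups overlap. Cd44 was read at 78.8 and 74.3 CPM against 71.0 and 91.0 CPM, with the Yoda1 libraries on either side of the controls.

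Of the genes of actin turnover, Tmsb4x, which encodes the monomer-binding peptide thymosin beta 4, had 3402 and 4445 CPM in the controls and 3194 and 3347 CPM under Yoda1. Both Yoda1 libraries were lower, control 1 only just above them, and the log2 fold change was -0.30 ± 0.26. Actb, cytoplasmic beta-actin, had 3369 and 3154 CPM against 3132 and 3725 CPM. Its paralogue Actg1, gamma-actin, had 1356 and 1348 CPM against 1139.5 and 1406 CPM. On plain CPM the Yoda1 libraries enclose the controls for both actins, whereas on CPM with TMM factors both Yoda1 libraries lie below both controls for Actg1. The filament-severing cofilin gene Cfl1 had 1127 and 1004 CPM against 950.5 and 995 CPM, and the profilin gene Pfn1 975 and 966 CPM against 856 and 900.1 CPM. Myl6, the essential light chain of non-muscle myosin II, had 634 and 646 CPM against 577 and 629.8 CPM. On plain CPM Yoda1 library 1 held the lowest value of the 4 libraries for all 6 of these members, and none of them passed the test. The TMM factors were 0.949, 1.02, 0.940 and 1.10 in control 1, control 2, Yoda1 1 and Yoda1 2. On the TMM scale of the test that order does not hold for all 6.

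The members with the smallest p among those that were higher were Actn1, Rock2, Rock1 and Ptk2b. Actn1, an actin-bundling alpha-actinin, was read at 11.4 and 13.1 CPM in the controls and 10.6 and 20.4 CPM under Yoda1, with a log2 fold change of 0.27 ± 0.27. The kinase gene Rock2 was read at 82.9 and 85.8 CPM against 79.5 and 113 CPM. Its paralogue Rock1 had 137 and 131 CPM against 134 and 158 CPM, and Ptk2b, which encodes the focal adhesion kinase relative PYK2, 31.7 and 27.6 CPM against 25.5 and 39.5 CPM. All 4 were highest in Yoda1 library 2, while Yoda1 library 1 lay below the higher control. Without Yoda1 library 2 the log2 fold changes were -0.13 for Actn1, -0.015 for Rock2 and -0.15 for Ptk2b. Without control library 2 that of Rock1 was -0.019 and that of Ptk2b -0.092.

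The 6 wider lists of adhesion and actin genes reported here had 0 genes called over all cells. Integrins and other adhesion receptors lay above 0 for 7 of 18 tested (median log2 fold change -0.12), integrin adaptors and kinases for 9 of 25 (-0.084), cortex and membrane linkage for 6 of 17 (-0.057) and myosins and their regulators for 7 of 17 (-0.029). Actin assembly and turnover lay above 0 for 21 of 33 (0.040) and the SRF and MRTF genes for 2 of 3 (0.061). The smallest p was that of Dstn, which encodes the cofilin relative destrin, at a log2 fold change of -0.62 ± 0.22 (edgeR unadjusted p = 0.026, adjusted p = 0.99994).

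Within single gates, the treatment comparison called 0 members in each of the 7 gates. Over all genes 0% were called in 6 gates and 0.0462% (5 genes, all lower) in the dendritic-like gate. At an unadjusted p under 0.05 edgeR gave 201 of 11562 tested genes in the HSC-like and 244 of 10834 in the mast and basophil-like gate. It gave 219 of 12784 in the lymphoid-, 354 of 14287 in the myeloid-, 312 of 13150 in the erythroid- and 303 of 12662 in the megakaryocyte-primed-like gate. DESeq2 called 1 gene in the HSC-like, 2 in the lymphoid-, 15 in the myeloid- and 2 in the erythroid-primed-like gate. It called 0 in the megakaryocyte-primed-like, 0 in the mast and basophil-like and 12 in the dendritic-like gate. In the HSC-like gate the module took 127 and 123 of 10000 UMIs in the controls and 117 and 131 in the Yoda1 libraries, which enclose the controls. The talin gene Tln1 had the smallest p upward there, with a log2 fold change of 0.21 ± 0.14, and Itgal the smallest downward, at -0.30 ± 0.23. In the megakaryocyte-primed-like gate the module took 229.2 and 246 of 10000 UMIs in the controls and 219.7 and 227 under Yoda1. Both Yoda1 libraries were lower there, Yoda1 library 2 only just below control 1. In this gate 28 of 34 members lay below 0, with a median of -0.082 beside -0.0028 over all genes. There Zyx, which encodes the adhesion-site protein zyxin, had 298 and 291 scaled CPM in the controls and 268 and 213 under Yoda1. Scaled CPM are CPM corrected by TMM factors fitted over all gates and libraries together. Zyx was lower in both Yoda1 libraries (log2 fold change -0.28 ± 0.13, edgeR unadjusted p = 0.054). In this gate 6 of the 13 marker lists were also lower in both Yoda1 libraries, among them the erythroid markers (442, 396, 348 and 279.5 CPM), and their part in the members' values was not tested.

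Of the receptors, Cxcr4 in the lymphoid-primed-like gate had an unadjusted p under 0.05. Its scaled CPM were 39.3 and 47.9 in the controls and 22.4 and 33.5 under Yoda1, lower in both, and the log2 fold change was -0.62 ± 0.22 (edgeR unadjusted p = 0.0215, adjusted p = 0.99950). Yoda1 library 1 was the lowest of the 4 libraries for Cxcr4 in each of the 7 gates. Without Yoda1 library 2 Cxcr4 was called in this gate (log2 fold change -0.95), a fit in which the lone Yoda1 library is assumed to vary like the controls. In this gate 5 of the 13 marker lists were lower in both Yoda1 libraries, among them the myeloid markers (1996, 1361, 1231 and 650.0 CPM), and their part in the Cxcr4 values was not tested.

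In the dendritic-like gate 26 of 34 members lay below 0 (median -0.16 beside 0.0061 over all genes). The actin cross-linker gene Flna had 179.6 and 135 scaled CPM in the controls and 98.6 and 107 under Yoda1, and Actg1 had 2832 and 2709 against 1443 and 2323. Both were lower in both Yoda1 libraries, with log2 fold changes of -0.58 ± 0.19 and -0.52 ± 0.22 (edgeR adjusted p = 0.391 and 0.496). The gate's own content also differed between libraries. Its 8 marker genes summed to 13208, 18568, 5151 and 15209.7 CPM in control 1, control 2, Yoda1 1 and Yoda1 2, lowest in Yoda1 library 1. The 8 megakaryocyte markers summed there to 423, 1126, 124 and 58.0 CPM and the 6 red-cell genes to 10.5, 29.6, 24.1 and 921 CPM. Of 13 marker lists, 3 were higher in both Yoda1 libraries than in both controls in this gate and 5 lower. The HSC markers (139, 167, 282 and 385 CPM) and lymphoid markers (308, 479, 673 and 569.7 CPM) were higher, and the myeloid markers (4461, 4160.0, 2109.8 and 1298 CPM) and erythroid markers (579.8, 141, 135 and 97.2 CPM) lower. The part of these in the members' values was not tested.

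The second comparison set each other gate against the HSC-like gate within the same library. All 6 comparisons share the HSC-like sums, so their values are given side by side and are not independent. In the megakaryocyte-primed-like gate 23 members were higher and 9 lower of 34 tested, beside 31.3% and 32.4% of all genes (63.6% called). In the mast and basophil-like gate 23 were higher and 4 lower (23.5% and 22.8% of all genes, 46.3% called), and in the dendritic-like gate 19 and 4 (17.5% and 13.8%, 31.3% called). In the myeloid-primed-like gate 19 were higher and 10 lower (33.6% and 35.4%, 69% called), in the lymphoid-primed-like gate 12 and 8 (20.2% and 19.2%, 39.3% called), and in the erythroid-primed-like gate 14 and 14 (34.3% and 36.1%, 70.4% called). The members' median log2 fold changes were 0.52, 0.35, 0.31, 0.30, 0.096 and 0.086 in that order, with -0.058 to 0.0023 over all genes. The highest mean scaled CPM of a member was in the megakaryocyte-primed-like gate for 15 of 35 members, and the lowest in the HSC-like gate for 11. For 7 of the 15 and 9 of the 11 the libraries overlap with the next gate in the order, so those ends are not resolved.

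These splits depend on scaling. With plain CPM the median of all genes moved to -0.12 in the lymphoid-, -0.53 in the myeloid- and -0.40 in the erythroid-primed-like gate, and to -0.21, -0.20 and -0.19 in the megakaryocyte-primed-like, mast and basophil-like and dendritic-like gates. On that scale 10 members were called higher and 12 lower in the lymphoid-primed-like gate (11.7% and 28.1% of all genes), 12 and 16 in the myeloid-primed-like gate (16.6% and 57.6%) and 6 and 19 in the erythroid-primed-like gate (20.8% and 52.5%). In the megakaryocyte-primed-like gate 22 were higher and 11 lower (22.2% and 42.7% of all genes), in the mast and basophil-like gate 18 and 10 (14.1% and 35.5%) and in the dendritic-like gate 14 and 4 (10.9% and 27.2%). The log2 fold changes below are on the TMM scale unless plain CPM is named.

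**Figure D3:**
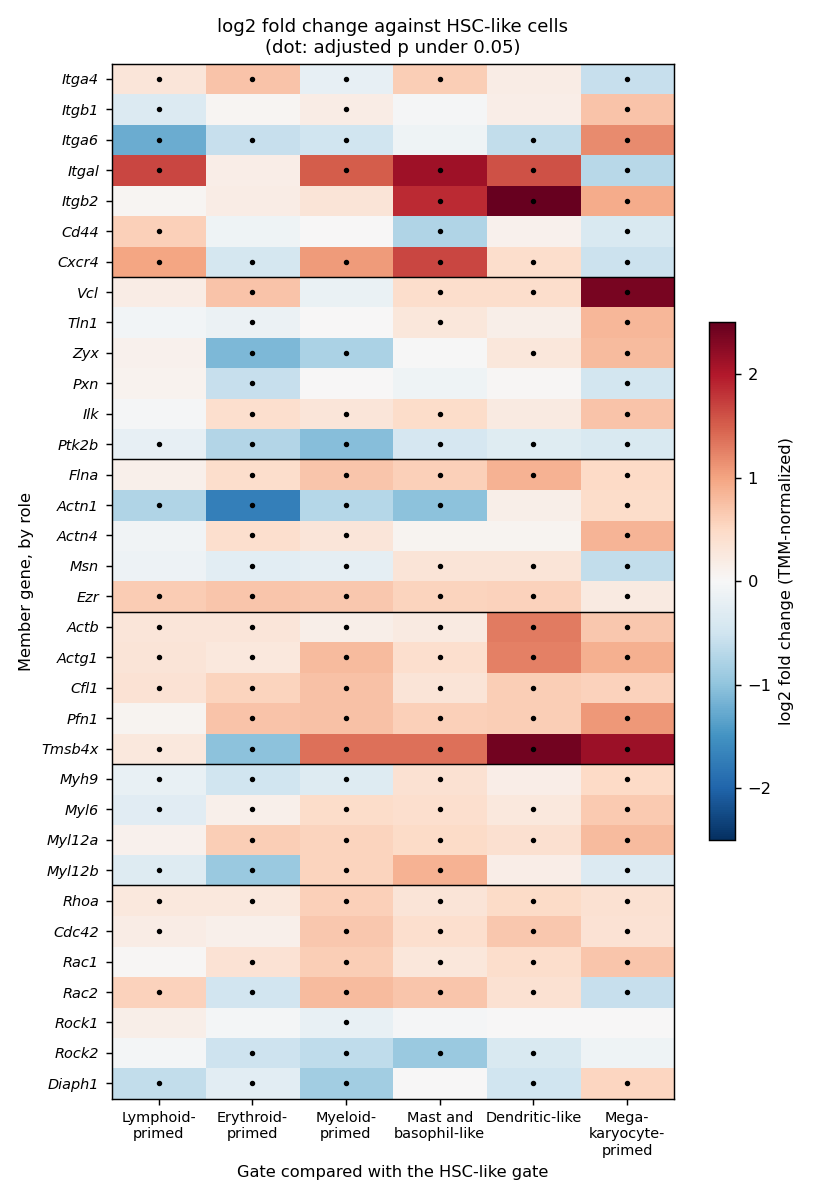
log2 fold change (TMM-normalized) of the 34 tested members, ordered by role, in each gate against the HSC-like gate, with a dot where the adjusted p is under 0.05. In the megakaryocyte-primed-like column Vcl (2.37) and Tmsb4x (2.15) are highest and Itgal (-0.69) lowest; on the plain CPM scale 4 myeloid- and 4 erythroid-primed-like values named in the text change sign.

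The receptors differed between gates in opposite directions. Itga6, the alpha chain of laminin-binding integrins, had 55.9, 44.2, 49.0 and 47.1 scaled CPM in the HSC-like gate of control 1, control 2, Yoda1 1 and Yoda1 2. In the megakaryocyte-primed-like gate it had 102, 123, 114 and 97.6, above every HSC-like value (log2 fold change 1.18 ± 0.07, edgeR adjusted p = 9.9e-17). In the lymphoid-primed-like gate it had 17.6, 21.1, 17.0 and 23.1, below every one (-1.23 ± 0.10, edgeR adjusted p = 3.5e-10). The means of the megakaryocyte- and lymphoid-primed-like gates differed 5.54-fold. Over the 6 comparisons Itga6 was called higher in 1 and lower in 4. Itgb1, the common beta chain, was higher in the megakaryocyte-primed-like gate (0.72 ± 0.06) and lower in the lymphoid-primed-like gate (-0.33 ± 0.07). In the myeloid-primed-like gate Itgb1 was called higher at 0.19, but with plain CPM it was -0.28.

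Itgal had 14.4, 12.0, 10.6 and 10.7 scaled CPM in the HSC-like gate and 49.1, 44.3, 50.3 and 57.3 in the mast and basophil-like gate, with no overlap (log2 fold change 2.12 ± 0.14). It was also higher in the lymphoid-primed-like (1.67 ± 0.10), dendritic-like (1.59 ± 0.15) and myeloid-primed-like gates (1.51 ± 0.12). In the megakaryocyte-primed-like gate it was lower (-0.69 ± 0.16), a call lost at a gate score of 1. Its partner Itgb2 had 14.4, 8.77, 8.98 and 9.77 scaled CPM in the HSC-like gate and 63.1, 78.6, 33.3 and 60.8 in the dendritic-like gate, with Yoda1 library 1 the lowest there but above every HSC-like value. Its log2 fold change was 2.52 ± 0.16 in the dendritic-like gate, 1.86 ± 0.17 in the mast and basophil-like gate and 0.93 ± 0.13 in the megakaryocyte-primed-like gate. In the lymphoid-primed-like gate, where Itgal was high, Itgb2 was read at 0.049 ± 0.13 and did not pass the test (edgeR adjusted p = 0.803).

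Itga4 had its highest mean in the erythroid-primed-like gate, at 195, 217, 202 and 164 scaled CPM against 112, 127, 127 and 117 in the HSC-like gate (log2 fold change 0.71 ± 0.07), and it was lower in the megakaryocyte-primed-like gate (-0.58 ± 0.06). Its erythroid-primed-like and mast and basophil-like values overlap, so their order is not resolved. Cd44 was higher in the lymphoid-primed-like gate (0.60 ± 0.08) and lower in the mast and basophil-like (-0.75 ± 0.09) and megakaryocyte-primed-like gates (-0.38 ± 0.07). Cxcr4 was higher in the mast and basophil-like (1.68 ± 0.13), myeloid-primed-like (1.07 ± 0.11) and lymphoid-primed-like gates (0.98 ± 0.10) and lower in the megakaryocyte-primed-like (-0.54 ± 0.13) and erythroid-primed-like gates (-0.43 ± 0.13). All neighbours in its order of gates overlap between libraries. In the mast and basophil-like gate Cxcr4 had 44.1, 65.6, 29.8 and 75.0 scaled CPM, lowest in Yoda1 library 1 and highest in Yoda1 library 2. The 8 markers of that gate summed to 7839.8, 9087, 7365 and 22811 CPM in the same order of libraries, and their part in the Cxcr4 values was not tested.

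**Figure D4:**
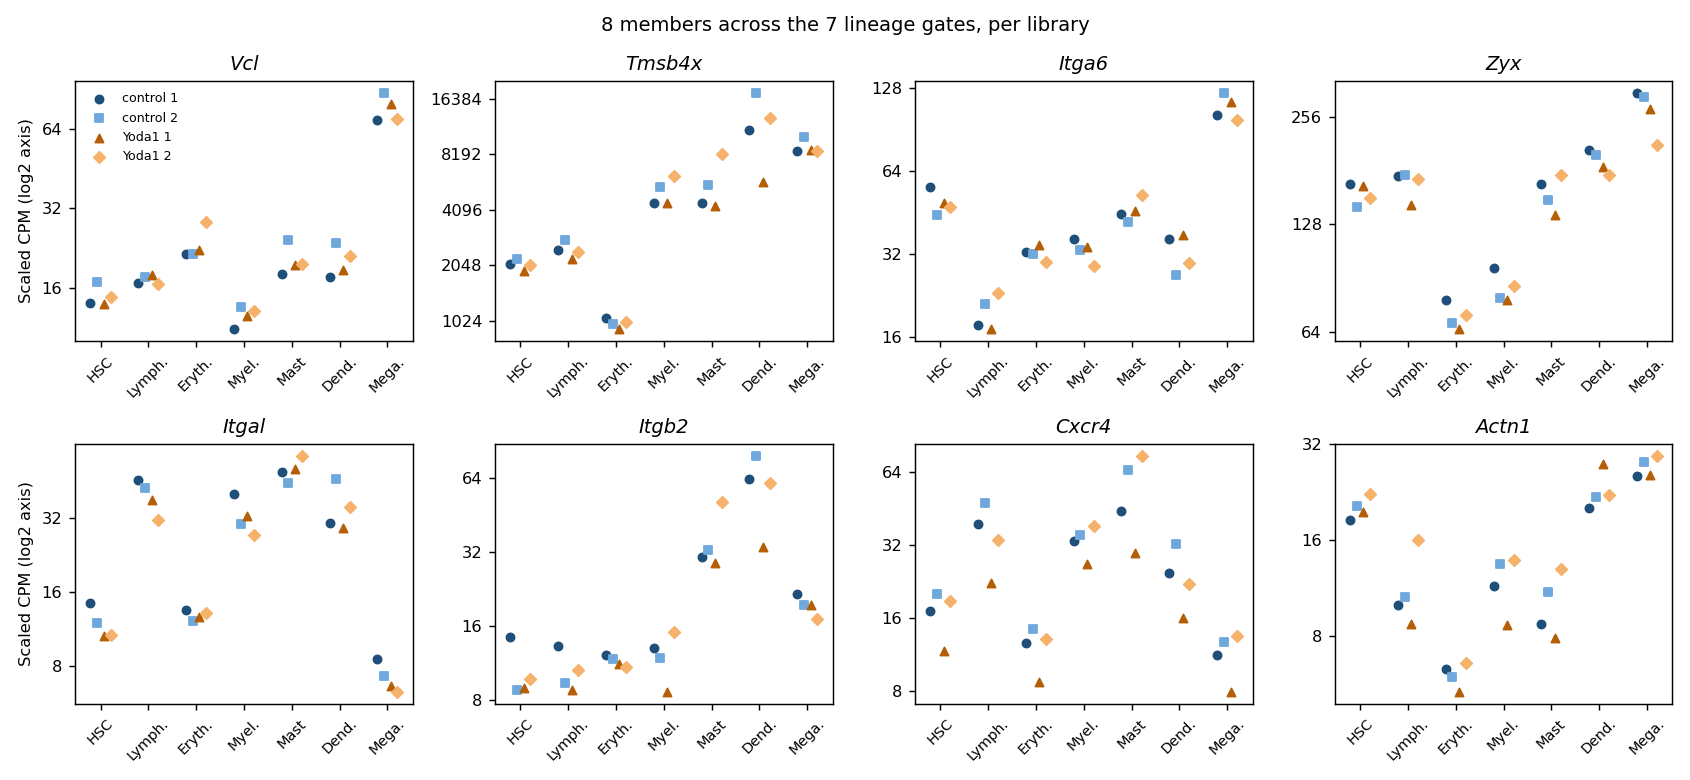
Scaled CPM (log2 axis) of 8 members in the 7 gates, 1 point per library. Vcl, Itga6 and Zyx have their highest mean in the megakaryocyte-primed-like gate; Itgb2 and Tmsb4x have theirs in the dendritic-like gate, where Yoda1 library 1 is the lowest library (33.3 and 5801 scaled CPM).

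Among the 6 adhesion-site genes, 4 were higher and 2 lower in the megakaryocyte-primed-like gate, beside 31.3% and 32.4% of all genes. Vcl, which encodes vinculin, the actin-binding reinforcer of loaded adhesions, had 14.0, 16.9, 13.9 and 14.8 scaled CPM in the HSC-like gate and 69.2, 87.6, 79.4 and 70.1 in the megakaryocyte-primed-like gate. The values do not overlap, and the log2 fold change of 2.37 ± 0.09 was the largest of the 34 members in that comparison (edgeR adjusted p = 2.6e-23). Tln1, talin, the integrin activator, was higher by 0.84 ± 0.05 on the log2 scale, Zyx by 0.79 ± 0.06 and Ilk by 0.71 ± 0.07. The scaffold gene Pxn (-0.46 ± 0.09) and the kinase gene Ptk2b (-0.39 ± 0.09) were lower. Zyx was lower in the erythroid-primed-like (-1.11 ± 0.07) and myeloid-primed-like gates (-0.80 ± 0.08). Ptk2b was called lower in all 6 gates, most in the myeloid-primed-like gate (-1.06 ± 0.11). Ilk was called higher in the myeloid-primed-like gate at 0.30, but with plain CPM it was -0.17. Vcl was also higher in the erythroid-primed-like gate (0.71 ± 0.12).

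Cross-linkers and membrane linkers differed among themselves. Actn1 had 18.5, 20.5, 19.6 and 22.4 scaled CPM in the HSC-like gate and 6.32, 5.95, 5.35 and 6.58 in the erythroid-primed-like gate, with no overlap (log2 fold change -1.71 ± 0.14). It was lower as well in the mast and basophil-like (-1.02 ± 0.16), lymphoid-primed-like (-0.74 ± 0.12) and myeloid-primed-like gates (-0.72 ± 0.13). Its paralogue Actn4 was higher in the megakaryocyte-primed-like gate (0.85 ± 0.07) and in the erythroid-primed-like gate (0.43 ± 0.08), the second a call lost with plain CPM. It was called higher at 0.31 in the myeloid-primed-like gate, where plain CPM gave -0.16. Ezrin and moesin fasten the cortex to the membrane. Ezr was higher in all 6 gates by 0.22 to 0.70, but in the megakaryocyte-primed-like gate the call was lost with DESeq2, with plain CPM and without control library 2 or Yoda1 library 2. Msn was lower in the megakaryocyte-primed-like gate (-0.62 ± 0.06) and higher in the mast and basophil-like gate (0.33 ± 0.07), the second a call lost with plain CPM. Flna was higher in 5 of 6 gates, most in the dendritic-like gate (0.86 ± 0.11); in the erythroid-primed-like gate (0.44 ± 0.08) the call was lost with plain CPM.

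Genes of actins and actin turnover were called higher for 5 of 5 members in the megakaryocyte-primed-like, mast and basophil-like, dendritic-like and myeloid-primed-like gates and for 4 of 5 in the lymphoid- and erythroid-primed-like gates. Over all genes 31.3%, 23.5%, 17.5%, 33.6%, 20.2% and 34.3% were called higher in these gates, in the order named. Tmsb4x had the widest range of the members for which a fold was computed, 11.9-fold between the means of the dendritic-like and the erythroid-primed-like gate. It had 2069.7, 2212, 1913 and 2064 scaled CPM in the HSC-like gate and 8474, 10178, 8596 and 8561 in the megakaryocyte-primed-like gate (log2 fold change 2.15 ± 0.03). In the dendritic-like gate it had 11080.2, 17613, 5801 and 12892 (2.41 ± 0.15), with Yoda1 library 1 far below the others, and without that library the log2 fold change was 2.67. In the erythroid-primed-like gate it had 1058, 984, 923 and 1003, below every HSC-like value (-1.03 ± 0.04). Pfn1 was higher by 1.08 ± 0.04 in the megakaryocyte-primed-like gate and by 0.72 ± 0.05 in the erythroid-primed-like gate. In the dendritic-like gate Actb was higher by 1.29 ± 0.08 and Actg1 by 1.25 ± 0.08, and in the megakaryocyte-primed-like gate by 0.67 ± 0.03 and 0.89 ± 0.04. In the myeloid-primed-like gate Actb was 0.16, but with plain CPM -0.31. In the erythroid-primed-like gate Actb was 0.29 and Actg1 0.27, but with plain CPM -0.049 and -0.071.

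Non-muscle myosin II is built from heavy chains, Myh9 here, with essential and regulatory light chains. Myh9 was higher in the megakaryocyte-primed-like (0.49 ± 0.06) and mast and basophil-like gates (0.38 ± 0.07) and lower in the erythroid-primed-like (-0.49 ± 0.06), myeloid-primed-like (-0.33 ± 0.08) and lymphoid-primed-like gates (-0.19 ± 0.07). The last call was lost with DESeq2, with no filter, at a gate score of 1 and without control library 2 or Yoda1 library 2. Myl6 was higher in the megakaryocyte-primed-like gate (0.65 ± 0.04) and lower in the lymphoid-primed-like gate (-0.29 ± 0.05), and in the erythroid-primed-like gate it was 0.13, but with plain CPM -0.21. Of the genes with a CArG box shown above, Vcl, Actg1 and Myl6 were thus higher in the megakaryocyte-primed-like gate, as were members without one, while Myl9 stayed at or below 0.467 scaled CPM in every gate and library. The regulatory light chain genes Myl12a and Myl12b are near-identical neighbours on chromosome 17, so reads could be split between them and their values are uncertain. Myl12a was higher and Myl12b lower in the megakaryocyte-primed-like gate (0.79 ± 0.05 and -0.33 ± 0.07) and in the erythroid-primed-like gate (0.61 ± 0.06 and -0.93 ± 0.08).

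Myl12b also moved with the library number. Over all cells it had 59.5 and 129.8 CPM in control libraries 1 and 2 and 61.8 and 111 CPM in Yoda1 libraries 1 and 2. In each of the 7 gates both libraries numbered 2 were above both numbered 1. Rhoa and Cdc42 showed this order in 7 of 7 gates too, Cxcr4 and Actn1 in 5 of 7 and Vcl in 4 of 7. Myl12a did so in 2 of 7, and no other tested member in more than 3. Over all cells Myl12a had 177 and 173 CPM against 143 and 169 CPM. What the number marks is not given in the sources used here, and its part in these values was not tested.

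**Figure D5:**
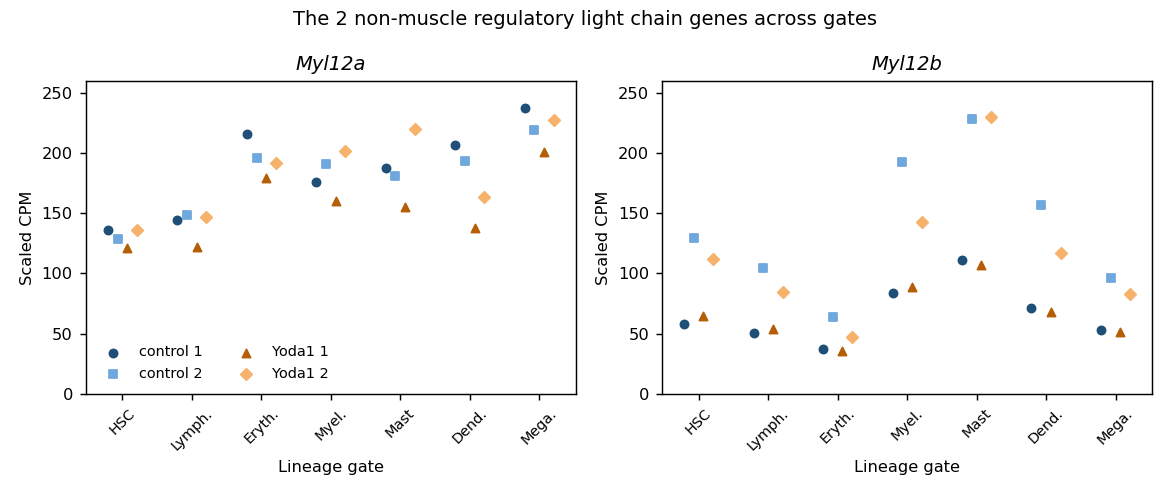
Scaled CPM (axis from 0) of Myl12a and Myl12b in the 7 gates, 1 point per library. For Myl12b both libraries numbered 2 lie above both numbered 1 in every gate (in the HSC-like gate 129.6 and 112 against 58.2 and 64.8), while for Myl12a they do so in 2 of 7.

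ROCK kinases act on myosin, and the formin DIAPH1 on filament growth. Rac2, the blood-cell Rac, had 358, 277, 272 and 317 scaled CPM in the HSC-like gate and 233, 176, 185 and 209 in the megakaryocyte-primed-like gate, each library lower than its own HSC-like value (log2 fold change -0.57 ± 0.05). Its widely expressed paralogue Rac1 was higher there (0.69 ± 0.05). In the erythroid-primed-like gate the pair also parted, Rac2 at -0.49 ± 0.06 and Rac1 at 0.36 ± 0.06, although the Rac1 call was lost with plain CPM. Rhoa was higher in all 6 gates by 0.25 to 0.60, but in the erythroid-primed-like gate it was 0.26 with TMM and -0.083 with plain CPM. Rock1 passed the test in 1 of 6 gates, the myeloid-primed-like gate (-0.18 ± 0.07), and that call was lost with no filter, at a gate score of 1 and without control library 1, Yoda1 library 1 or Yoda1 library 2. Its paralogue Rock2 was lower in the mast and basophil-like (-0.93 ± 0.09), myeloid-primed-like (-0.64 ± 0.08), erythroid-primed-like (-0.51 ± 0.07) and dendritic-like gates (-0.39 ± 0.08). Diaph1 was called higher in 1 of 6 gates, the megakaryocyte-primed-like gate (0.54 ± 0.05), and lower in 4. Among those 4 were the myeloid-primed-like (-0.87 ± 0.08) and lymphoid-primed-like gates (-0.62 ± 0.07).

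Of the wider lists in the megakaryocyte-primed-like gate, integrin adaptors and kinases had 14 higher and 6 lower of 23 tested, and myosins and their regulators 11 and 4 of 17. Integrins and other adhesion receptors had 4 higher and 10 lower of 15. In the erythroid-primed-like gate the receptor list had 3 higher and 11 lower of 15 and the actin assembly list 7 and 16 of 33. In the dendritic-like gate the actin assembly list had 22 higher and 2 lower of 32. Over all genes 31.3% were called higher and 32.4% lower in the megakaryocyte-primed-like gate. The shares were 34.3% and 36.1% in the erythroid-primed-like gate and 17.5% and 13.8% in the dendritic-like gate. These list counts are on the TMM scale, and counts with plain CPM are not given here.

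The third comparison tested whether the Yoda1 difference itself differed between a gate and the HSC-like gate. Of the members, 1 of 34 was called, in the dendritic-like gate, beside 0.965% of all genes. In the other 5 gates 0 members were called, beside 0.00771% of genes in the lymphoid-, 0.0139% in the myeloid-, 0.0145% in the erythroid- and 0.0678% in the megakaryocyte-primed-like gate and 0.092% in the mast and basophil-like gate. The called member was Actb. In the dendritic-like gate it had 8042 and 7356 scaled CPM in the controls and 5246 and 6686 under Yoda1, lower in both, and in the HSC-like gate 2793 and 2516 against 2684 and 2999, where the groups overlap. The difference of the log2 fold changes was -0.45 ± 0.11 (edgeR adjusted p = 0.0269). The call was lost without control library 1, control library 2 or Yoda1 library 1 (edgeR adjusted p = 0.456, 0.366 and 0.231) and at a gate score of 1 (-0.30, edgeR adjusted p = 0.454). As given above, in this gate the dendritic markers were lowest in Yoda1 library 1, and the HSC and lymphoid markers were higher and the myeloid markers lower in both Yoda1 libraries. Their part in the Actb difference was not tested. Among the members not called, Flna (-0.59 ± 0.16) and Actg1 (-0.43 ± 0.11) came next, both with an edgeR adjusted p of 0.0654. Tln1 and Zyx in the megakaryocyte-primed-like gate had values of -0.30 ± 0.09 and -0.34 ± 0.11 (edgeR adjusted p = 0.477 for both).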

How the data were processed

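The libraries were 2 control and 2 Yoda1 samples of sorted LSK cells. The deposited matrices hold raw UMI counts per gene and cell, as the authors deposited them. The builds GRCm38 and mm10, Seurat 4.3.0 and Cell Ranger 7.1.0 are named in the sources used here, and the part of each in the processing is not described here. The labels name 2 capture platforms, and how introns were counted is not given in the sources used here.

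A cell was kept if it had 500 or more genes, 1000 or more UMIs and no more than 10% of UMIs from mitochondrial genes. No doublet caller was run and no doublets were removed; an alternative left out the 5% of cells with most UMIs. A gate needed a mean marker z-score of at least 0.5 and at least 3 detected markers. Cells whose best-scoring list scored within 0.1 of that threshold, on either side, numbered 521 for the HSC-like list, 1222, 624, 198 and 108 for the lymphoid-, myeloid-, erythroid- and megakaryocyte-primed-like lists, 33 for the mast and basophil-like list and 78 for the dendritic-like list. Counts were summed per library and gate and tested with edgeR 4.0.16 (R 4.3.3; filterByExpr, TMM, quasi-likelihood test, Benjamini-Hochberg adjustment over all genes, threshold 0.05). The SE is the size of the log2 fold change divided by the square root of F. Gates were compared with the library as a block. Alternatives were DESeq2 1.42.0, RLE scaling, plain CPM (chosen after seeing the data), no filter on low counts, other cell filters and gate settings, a replicate block and leaving out each library. The scripts were tested on simulated data. The members and lists were chosen with earlier results of these data known. The text names all members by role, those with most UMIs, the receptors and paralogue pairs, and those with the smallest p or the largest difference in a comparison. One gene list that was tested is not reported here. Gene positions come from GENCODE M21, which matched 94.1% of gene IDs, and promoter sequences from RefSeq.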

Additional observations from a re-analysis of the deposited data

Results flagged for a closer look

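One result met the criterion of an effect that differs between groups by a test of the difference itself. The Yoda1 difference of Actb in the dendritic-like gate minus that in the HSC-like gate was -0.45 on the log2 scale (SE 0.11, edgeR adjusted p = 0.0269). Actb was lower in both Yoda1 libraries than in both controls in the dendritic-like gate, while the groups overlapped in the HSC-like gate. The call was lost without control library 1, control library 2 or Yoda1 library 1 and at a gate score of 1. In that gate the dendritic markers were lowest in Yoda1 library 1. The HSC markers summed to 139, 167, 282 and 385 CPM in control 1, control 2, Yoda1 1 and Yoda1 2, higher in both Yoda1 libraries, and the lymphoid markers to 308, 479, 673 and 569.7 CPM, also higher. The myeloid markers summed to 4461, 4160.0, 2109.8 and 1298 CPM, lower in both Yoda1 libraries. The part of these in the result was not tested.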

How the results depend on the processing

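Each alternative changed one choice. In the treatment comparison over all cells DESeq2 called 5 genes where edgeR called 0, and within gates it called 1 gene in the HSC-like, 2 in the lymphoid-, 15 in the myeloid- and 2 in the erythroid-primed-like gate and 12 in the dendritic-like gate (main 5). With no filter on low counts the within-gate counts were 44 (HSC-like), 51 (lymphoid-), 81 (myeloid-), 98 (erythroid-) and 62 (megakaryocyte-primed-like), 29 (mast and basophil-like) and 336 (dendritic-like, with 2 members). The dendritic-like count was 3 with cells of 1000 or more genes and no more than 5% mitochondrial UMIs, 1 without the 5% of cells with most UMIs, and 0 with every deposited barcode, at a gate score of 1 and with 2 detected markers. In the gate comparisons DESeq2 called 3204 genes in the lymphoid-primed-like (main 5106), 3506 in the mast and basophil-like (main 5529) and 2085 in the dendritic-like gate (main 3693).

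For the difference of the Yoda1 effect from the HSC-like gate, the main counts of 1 (lymphoid-), 2 (myeloid-), 2 (erythroid-) and 9 (megakaryocyte-primed-like), 11 (mast and basophil-like) and 114 (dendritic-like) genes became 0, 0, 0, 0, 2 and 25 with DESeq2. With no filter they were 9, 16, 10 in the first 3 gates, 23 in the mast and basophil-like and 185 in the dendritic-like gate. At a gate score of 1 they were 0 in the myeloid-, erythroid- and megakaryocyte-primed-like gates, 3 in the mast and basophil-like and 49 in the dendritic-like gate. With 2 detected markers they were 0, 5, 0 and 4 in the lymphoid-, myeloid- and erythroid-primed-like and the mast and basophil-like gates, and with every barcode 0, 0 and 9 in the first 3. Without the cells with most UMIs they were 1 (erythroid-), 2 (megakaryocyte-primed-like) and 7 (mast and basophil-like), and with the stricter cell filter 4 (erythroid-) and 5 (megakaryocyte-primed-like). RLE scaling gave 0 in the lymphoid- and myeloid-primed-like gates, and plain CPM 0 in the lymphoid- and 1 in the erythroid-primed-like gate. The 1 member called in the dendritic-like gate became 2 with DESeq2, 3 with RLE, 4 with no filter, 2 with every barcode, 3 without the cells with most UMIs, 0 at a gate score of 1 and 4 with 2 detected markers. The cause of these moves was not tested.

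The Yoda1 minus control difference in module UMIs per 10000 was 5.02 in the erythroid-primed-like gate without the cells with most UMIs (main -2.02), -26.2 in the megakaryocyte-primed-like gate (main -14.2), and -17.0 in the dendritic-like gate without Tmsb4x and Actb (main -77.4).

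Leaving out 1 library at a time leaves an arm with a lone library, which is assumed to vary like the other group. The genes called then ranged from 0 to 938 over all cells, and within gates from 0 to 101 (HSC-like), 0 to 186 (lymphoid-, members 0 to 1), 0 to 161 (myeloid-), 0 to 132 (erythroid-), 1 to 72 (megakaryocyte-primed-like), 2 to 116 (mast and basophil-like) and 17 to 335 (dendritic-like, members 0 to 3). For the dendritic-like against the HSC-like gate they ranged from 2297 to 3760. For the difference of effects they ranged from 0 to 94 (lymphoid-, members 0 to 1), 5 to 55 (myeloid-), 6 to 86 (erythroid-), 0 to 43 (megakaryocyte-primed-like), 6 to 136 (mast and basophil-like, members 0 to 2) and 5 to 272 (dendritic-like, members 0 to 4).

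Among named members, some log2 fold changes of the treatment comparison changed sign when 1 library was left out. Over all cells their ranges were -0.13 to 0.58 for Actn1, -0.015 to 0.26 for Rock2, -0.019 to 0.16 for Rock1 and -0.15 to 0.24 for Ptk2b. Within gates they were -0.61 to 0.11 for Itgb2 (HSC-like), -0.22 to 0.63 for Actn1 (lymphoid-primed-like), -0.41 to 0.016 for Itgal (myeloid-primed-like), -0.052 to 0.16 for Actn4 and -0.064 to 0.15 for Cdc42 (megakaryocyte-primed-like), and -0.13 to 0.71 for Itgb2 and -0.68 to 0.022 for Itga4 (mast and basophil-like). Without the cells with most UMIs Actn4 in the megakaryocyte-primed-like gate was -0.017 and Vcl in the erythroid-primed-like gate -0.020. Of the 159 called member values between gates, 8 changed sign with plain CPM: Actb (-0.31), Ilk (-0.17), Actn4 (-0.16) and Itgb1 (-0.28) in the myeloid-primed-like gate, and Actb (-0.049), Myl6 (-0.21), Rhoa (-0.083) and Actg1 (-0.071) in the erythroid-primed-like gate. A further 20 lost their call with plain CPM, 9 with DESeq2, 9 at a gate score of 1, 8 with no filter, and 17 without control library 2.

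Same-numbered libraries deviated together (r = 0.454 over 18182 genes), but with only 2 pairs and no label for what the number marks they were not treated as paired. With the number as a replicate block the treatment comparison called 1 gene in the lymphoid-, 80 in the myeloid-, 31 in the erythroid- and 4 in the megakaryocyte-primed-like gate and 17 in the dendritic-like gate.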
